A study of Mus musculus with 6 samples.

Results

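Described here are 9 genes that mark dendritic cells or their states: Flt3, Zbtb46, Itgax, Xcr1, Batf3, Cd209a, Siglech, Ccr7 and Fscn1. They were taken by symbol from a deposited table of 21900 genes, and all 9 were found, each as 1 row. The table comes from RNA-seq of total RNA from mouse lungs. It holds 6 libraries, 3 with a wild type label (2 females and 1 male) and 3 with a Cyp1b1 KO label (2 females and 1 male), where CYP1B1 is a cytochrome P450 that oxidises steroids, retinoids and polycyclic hydrocarbons. All 6 libraries came from mice kept for 10 weeks on a high fat diet, named a western diet in the title. The sources used here give no strain, no age and no description of the knockout allele. No label states that the libraries are separate animals, and p-values therefore cover only library-to-library spread, which may be technical.

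Dendritic cells take up antigen in tissues and show it to T cells. In the lung, conventional dendritic cells fall into a type called cDC1, which depends on BATF3 and carries the chemokine receptor XCR1, and a type called cDC2. Plasmacytoid dendritic cells are a separate kind known for interferon production, and mature dendritic cells of any conventional type switch on CCR7, follow CCL19 and CCL21 along lymphatics and reach the draining lymph node. In bulk lung RNA fewer cells of a type and less RNA per cell cannot be told apart.

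The labels were checked against the targeted gene. Cyp1b1 was at 12.5, 19.04 and 18.5 CPM in the wild type-labelled libraries and at 51.2, 56.1 and 48.4 CPM in the knockout-labelled ones, the reverse of a loss of transcript (log2 difference 1.63, SE 0.18, limma adjusted p = 0.0588). CPM means counts per 1000000 reads assigned to genes. Exon-level reads were not analysed here. Whether the labels are exchanged, or the allele still gives transcript, was not tested. Directions of genotype rest on the labels throughout, and exchanged labels would turn every one of them. Depth, read from the step between low values, lay between 20.2 M and 27.6 M assigned reads per library (M, 1000000). The males, replicate 3 of each label, stood apart from the 4 females, so the comparison of labels is given with and without them.

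For most of the 9 genes the extreme values were those of the 2 males, and the 4 females spanned between 1.11-fold (Itgax) and 2.29-fold (Cd209a). Of the 9, 7 had their highest value in the wild type-labelled male and their lowest in the knockout-labelled male. Among the 17382 genes tested this double pattern was found in 11.4%. In all, 25.7% were highest in that wild type-labelled male and 37.5% lowest in that knockout-labelled male. Because the 9 genes were chosen with earlier results of these data known, their count gives no independent support. Xcr1, Itgax and Fscn1 passed the interaction test, which here sets 1 male library per label against the female pairs and cannot tell a difference of sex from one of these 2 libraries. Zbtb46 and Cd209a were the exceptions.

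**Figure D1:**
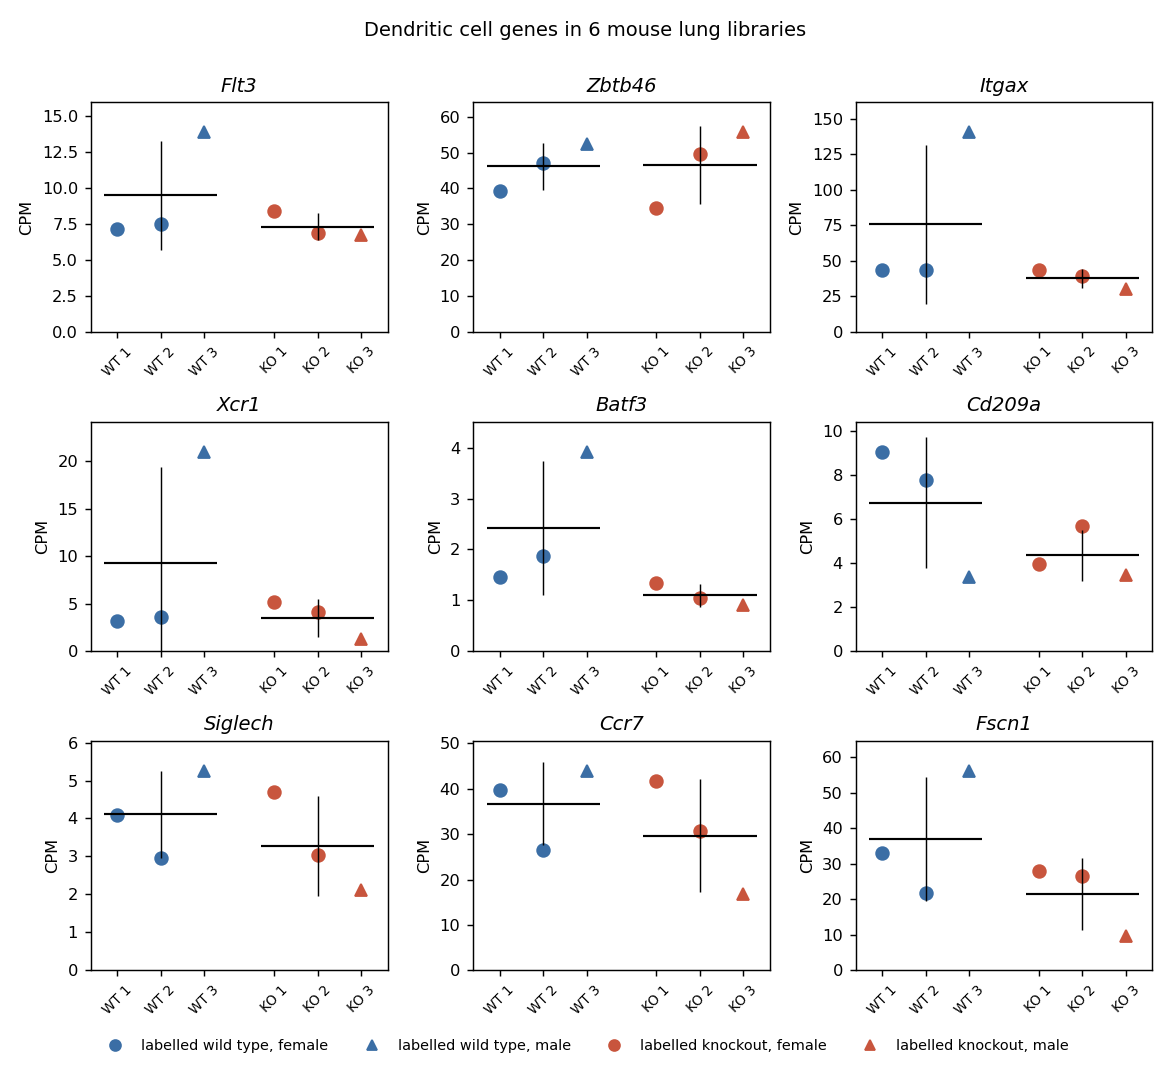
CPM of each gene (vertical axes, linear from 0) in the 6 libraries (WT, labelled wild type; KO, labelled knockout; circles, females; triangles, males); horizontal lines are means and vertical lines SD of the 3 libraries of a label, the latter running below the axis for Xcr1. In 7 panels the wild type-labelled male is highest and the knockout-labelled male lowest; Zbtb46 and Cd209a do not show this.

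The sequence before the start site is shown for Itgax, Xcr1 and Fscn1, the genes that passed the interaction test. Each run holds the 250 bases before the RefSeq start (build GRCm38.p6, the same assembly as mm10), 5′ to 3′ on the gene's strand, and capitals mark a match to any of 7 motifs.
Itgax, chr7:128129300-128129549, plus strand: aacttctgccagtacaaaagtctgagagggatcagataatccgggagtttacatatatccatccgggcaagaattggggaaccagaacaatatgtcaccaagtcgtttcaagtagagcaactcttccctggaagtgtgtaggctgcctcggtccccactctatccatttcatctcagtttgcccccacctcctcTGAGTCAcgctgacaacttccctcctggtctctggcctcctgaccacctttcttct
Xcr1, chr9:123862030-123862279, minus strand: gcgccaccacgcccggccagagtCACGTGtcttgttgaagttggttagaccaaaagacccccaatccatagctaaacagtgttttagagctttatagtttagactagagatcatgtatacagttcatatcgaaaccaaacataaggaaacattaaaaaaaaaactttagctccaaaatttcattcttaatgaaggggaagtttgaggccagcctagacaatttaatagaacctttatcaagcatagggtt
Fscn1, chr5:142960105-142960354, plus strand: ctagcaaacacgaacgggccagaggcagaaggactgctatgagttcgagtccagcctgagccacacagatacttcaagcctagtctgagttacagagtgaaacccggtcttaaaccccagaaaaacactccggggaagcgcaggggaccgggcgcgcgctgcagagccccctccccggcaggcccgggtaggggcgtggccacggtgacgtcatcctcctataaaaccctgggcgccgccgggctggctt
RefSeq gave such a window for 8 of the 9 genes, all but Ccr7. The motifs were searched on both strands: PU.1 (GAGGAAG), AP-1 (TGANTCA), the E-box (CANNTG), the interferon-stimulated response element, an ETS-IRF composite, an AP-1-IRF composite that contains the AP-1 letters, and NF-kB. Itgax held an AP-1 match (TGAGTCA), 56 to 50 bases before the start, and Xcr1 an E-box (CACGTG), 227 to 222 bases before it. No match to the 7 motifs was found in the Fscn1 window. Over all 32851 RefSeq windows of this length, AP-1 matched 6.75%, the E-box 66.2%, PU.1 10.6%, NF-kB 17.6%, the interferon-stimulated response element 2.98%, the ETS-IRF composite 2.3% and the AP-1-IRF composite 0.0974%. Among the 8 windows, E-boxes were found in 6, AP-1 in Itgax and Zbtb46, PU.1 in Batf3, and the other 4 motifs in none. The RefSeq start of Zbtb46 lies 35038 bases inside the GENCODE gene and that of Batf3 567 bases inside, so their windows may not be the main promoters.

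Flt3, Zbtb46 and Itgax are shared by dendritic cell types. Flt3 (ENSMUSG00000042817, mm10 chromosome 5, 147330741 to 147400489, minus strand) encodes the receptor for FLT3 ligand, the growth factor that drives dendritic cell development. It was at 7.12 and 7.52 CPM in the wild type-labelled females and 13.9 CPM in the male, against 8.38 and 6.85 CPM in the knockout-labelled females and 6.71 CPM in the male. A single library, the wild type-labelled male, stood above the other 5, which spanned 6.71 to 8.38 CPM. Label means were 9.50 ± 3.79 and 7.31 ± 0.926 CPM (SD, n = 3 each), and the labels overlapped.

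Zbtb46 (ENSMUSG00000027583, chromosome 2, 181387762 to 181459426, minus strand) encodes a zinc finger factor of conventional dendritic cells that is also made in endothelium. Its values were 39.3, 47.0 and 52.4 CPM in the wild type-labelled libraries and 34.6, 49.5 and 55.7 CPM in the knockout-labelled ones, the last of each being the male. The males were the 2 highest libraries and differed little from each other, so the labels overlapped almost fully (46.2 ± 6.61 and 46.6 ± 10.9 CPM, SD, n = 3 each).

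Itgax (ENSMUSG00000030789, chromosome 7, 128129547 to 128150657, plus strand) encodes CD11c, an integrin chain carried by dendritic cells and also by alveolar macrophages. The females were at 43.1 and 43.3 CPM with the wild type label and at 43.4 and 39.0 CPM with the knockout label. The wild type-labelled male reached 140.5 CPM and the knockout-labelled male 30.3 CPM. These males lie on either side of a narrow female range, 3.33 times the female mean in one and 0.719 times in the other. Label means were 75.6 ± 56.2 and 37.6 ± 6.64 CPM (SD, n = 3 each).

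Xcr1 and Batf3 belong to cDC1. Xcr1 (ENSMUSG00000060509, chromosome 9, 123852315 to 123862029, minus strand) encodes the receptor for the chemokine XCL1, by which cDC1 meet cytotoxic lymphocytes. It was at 3.18 and 3.56 CPM in the wild type-labelled females, 5.15 and 4.06 CPM in the knockout-labelled females, 21.0 CPM in the wild type-labelled male and 1.25 CPM in the knockout-labelled male. The gap between the males was 16.8-fold, the widest among the 9 genes, while the females spanned 1.62-fold. The lowest value rests on about 32 reads and the highest on about 492. Label means were 9.25 ± 10.2 and 3.49 ± 2.01 CPM (SD, n = 3 each), so the SD of the wild type label exceeds its mean.

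Batf3 (ENSMUSG00000026630, chromosome 1, 191097847 to 191108945, plus strand) encodes the AP-1 family factor that cDC1 need. It had 1.47, 1.88 and 3.93 CPM in the wild type-labelled libraries and 1.34, 1.05 and 0.897 CPM in the knockout-labelled ones, males last. All 3 wild type-labelled values lay above all 3 knockout-labelled ones, and Batf3 alone of the 9 separated the labels, where 9.52% of all genes tested did so in either direction. The exact two-sided permutation test over 20 assignments gave p = 0.1, the smallest that 3 against 3 allows. Its values rest on few reads, about 23 to 92 per library.

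Cd209a and Siglech mark the cDC2 and the plasmacytoid side. Cd209a (ENSMUSG00000031494, chromosome 8, 3743397 to 3748984, minus strand) encodes a C-type lectin related to DC-SIGN that is found on cDC2 and on monocyte-derived dendritic cells. It was at 9.04 and 7.76 CPM in the wild type-labelled females and at 3.94 and 5.66 CPM in the knockout-labelled females, with 3.37 and 3.43 CPM in the wild type- and knockout-labelled males. Both males were below all 4 females and close to each other. Between females the wild type label was higher in both libraries. It lies in a cluster of related Cd209 genes, and reads of near-identical copies could be split among them.

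Siglech (ENSMUSG00000051504, chromosome 7, 55768178 to 55778925, plus strand) encodes a sialic acid-binding lectin of plasmacytoid dendritic cells. Its 6 values were 4.10, 2.97 and 5.25 CPM with the wild type label and 4.70, 3.05 and 2.11 CPM with the knockout label, males last. The males again held the highest and the lowest value, while the 4 females together spanned 2.97 to 4.70 CPM.

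Ccr7 and Fscn1 belong to mature, migrating dendritic cells. Ccr7 (ENSMUSG00000037944, chromosome 11, 99144196 to 99155077, minus strand) encodes the receptor for CCL19 and CCL21 and is also carried by naive T cells and B cells. It was at 39.8, 26.5 and 43.9 CPM in the wild type-labelled libraries and at 41.6, 30.6 and 16.9 CPM in the knockout-labelled ones, males last. What sets this gene apart from Itgax is that the wild type-labelled male was barely above the females while the knockout-labelled male was well below them, at 0.488 times the female mean.

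Fscn1 (ENSMUSG00000029581, chromosome 5, 142960343 to 142973185, plus strand) encodes fascin, which bundles actin in the long processes of mature dendritic cells and is made in other cells too. Wild type-labelled libraries had 33.1, 21.8 and 56.2 CPM and knockout-labelled ones 28.05, 26.5 and 9.71 CPM, males last. The males lay on both sides of the females, 2.05 times and 0.355 times the female mean. Label means were 37.0 ± 17.5 and 21.4 ± 10.2 CPM (SD, n = 3 each).

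Levels of different genes were compared per kb of exon, using the union of GENCODE M21 exons. On this scale the mean over the 6 libraries ran from 16.8 for Ccr7 and 11.8 for Itgax through 9.70 for Fscn1, 5.46 for Zbtb46 and 3.50 for Cd209a to 1.43 for Xcr1, 1.36 for Flt3, 1.10 for Batf3 and 1.09 CPM per kb for Siglech. The last 4 overlapped one another in their ranges over libraries, and so did Ccr7, Itgax and Fscn1. In the wild type-labelled male Itgax (29.2) stood above Ccr7 (22.2 CPM per kb), and in the knockout-labelled male Ccr7 (8.53) was above Itgax (6.31). No exon of the 9 genes overlaps an exon of another gene in GENCODE M21, on either strand.

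The comparison of genotype labels found none of the 9 genes past the threshold, against 0.0115% of all genes tested. The test was limma on log2(CPM + 0.5) with sex as a term, 17382 genes with a mean of at least 0.5 CPM, and a Benjamini-Hochberg adjusted p under 0.05; differences on this scale understate changes of low genes. The fitted log2 difference, knockout minus wild type label, was below 0 for 9 of 9 genes, where 59.9% of all genes were below 0. With quantile normalization or median centring 8 of 9 stayed below 0 and Zbtb46 turned to 0.03 and 0.10. The median over the 9 was -0.50 and that of all genes -0.06, which the centring moved to 0.05. Adjusted p ran from 0.775 to 0.994 in limma, and 0 of the 9 had an unadjusted p under 0.05, a level that 5.13% of all genes reached.

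The intervals were wide where the males disagreed. Xcr1 had a log2 difference of -0.95 (SE 0.71, 95% interval -2.58 to 0.69), Fscn1 -0.81 (SE 0.45, -1.85 to 0.23) and Itgax -0.78 (SE 0.37, -1.63 to 0.07). Batf3 was at -0.79 (SE 0.37, -1.64 to 0.05) and Cd209a at -0.50 (SE 0.28, -1.14 to 0.13). Those of Ccr7 (-0.36), Siglech (-0.31) and Flt3 (-0.30) were smaller. Zbtb46 had the narrowest interval, -0.37 to 0.36 around -0.01, so it bounds a genotype difference of that gene more tightly than for the others.

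In the 4 females alone, the 9 genes had a median log2 difference of 0.02, and 4 of 9 were below 0, against 50.9% of all genes. None passed limma there (adjusted p = 1 for each), against 0.0230% of all genes (0.00575% higher, 0.0173% lower), and 1 of 9 had an unadjusted p under 0.05, against 2.63%. That gene was Cd209a, at -0.76 (SE 0.28, 95% interval -1.40 to -0.13). For Itgax the interval in females was -0.36 to 0.22 around -0.07, and for Fscn1 -0.45 to 0.49 around 0.02. Xcr1 had a log2 difference of 0.39 (95% interval -0.28 to 1.07) in females, the opposite sign to that over all 6 libraries. Flt3, Ccr7, Fscn1 and Siglech changed sign likewise, to between 0.02 and 0.14.

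**Figure D2:**
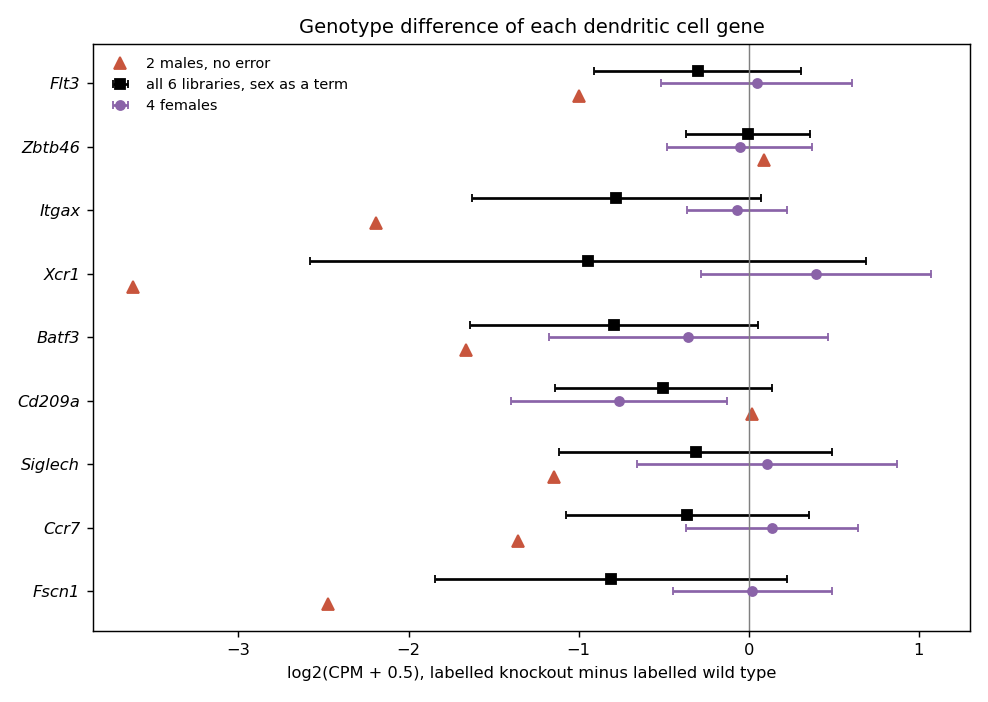
Difference of log2(CPM + 0.5), knockout minus wild type label (horizontal axis), for each gene: squares, limma over all 6 libraries with sex as a term; circles, limma in the 4 females (bars, 95% intervals); triangles, the knockout-labelled male minus the wild type-labelled male, with no error. The triangles lie far to the left for Xcr1, Fscn1 and Itgax, the circles lie near 0 for all but Cd209a, Xcr1 and Batf3.

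The knockout minus wild type difference of the 2 male libraries lay below that of the female pairs for Xcr1, Itgax and Fscn1, by the interaction term of limma. These are 3 of the 9 genes, where 1.84% of all genes were called lower, 0.702% higher and 2.54% in either direction. Because the 9 were chosen with earlier results of these data known, this count gives no independent support. At an unadjusted p under 0.05 the count was 5 of 9, against 17.9% of all genes. Xcr1 had an interaction of -4.01 log2 units (SE 0.49, limma adjusted p = 0.00596), Fscn1 of -2.49 (SE 0.36, 0.0110) and Itgax of -2.12 (SE 0.21, 0.00233). Each label has 1 male, so the residual spread is that of the female pairs, a male is taken to vary as they do, and no spread among males was measured. Over the alternatives the limma adjusted p ran from 0.00202 to 0.111 for Xcr1, from 0.000684 to 0.0810 for Itgax and from 0.00229 to 0.167 for Fscn1; the calls ended without a filter on low values (0.111, 0.0786 and 0.167) and without a variance trend (0.0509, 0.0810 and 0.122).

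The other 6 genes did not pass. Ccr7 had an interaction of -1.49 (SE 0.39, limma adjusted p = 0.0921), and it passed without wild type replicate 1 (-1.78, 0.0269), one of 12 alternatives, over which its adjusted p ran from 0.0269 to 0.279. Batf3 (-1.31), Siglech (-1.25) and Flt3 (-1.04) had limma adjusted p between 0.228 and 0.307. Cd209a (0.79) and Zbtb46 (0.14) were above 0. The 7 negative signs, against 60.5% of all genes, held under both other scalings, although the median of all genes moved from -0.13 to 0.03 under quantile normalization and to 0.09 under median centring. Over all genes, calls were 319 lower and 122 higher, and 313 lower and 348 higher after median centring.

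No gene of the 9 passed the contrast of males with females, against 0.834% of all genes. Cd209a (-0.80, SE 0.29, 95% interval -1.48 to -0.13) and Zbtb46 (0.35, SE 0.17, -0.03 to 0.74) had the smallest p, with limma adjusted p of 0.243 and 0.372. They were also the 2 of 9 genes whose sexes did not overlap, a state found in 24.0% of all genes. With 1 male left out, the contrast sets a single male library against the spread of the females, and no male replicate stands behind it. Without the knockout-labelled male, Xcr1 (2.48, limma adjusted p = 0.00634) and Itgax (1.69, 0.000846) were called higher, as were 3.45% of all genes. Without the wild type-labelled male, Fscn1 was called lower (-1.44, limma adjusted p = 0.0206), as were 2.53% of all genes. Over all alternatives the adjusted p for sex ran from 0.00634 to 0.965 for Xcr1, from 0.000846 to 0.712 for Itgax and from 0.0206 to 0.9997 for Fscn1.

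Ratios within a library compare members without the scale of the library. Xcr1 to Flt3 was between 0.447 and 0.615 in the 4 females, 1.51 in the wild type-labelled male and 0.186 in the knockout-labelled male, so in both males Xcr1 lay further from the females than Flt3 did. Cd209a to Flt3 ran the other way in the wild type-labelled male, at 0.243 against 0.471 to 1.27 in the females. Siglech to Flt3 (0.395 to 0.576 in females) was 0.378 in the wild type-labelled and 0.314 in the knockout-labelled male, both under the female range. Fscn1 to Ccr7 was 0.674 to 0.864 in females, 1.28 in the wild type-labelled male and 0.575 in the knockout-labelled male.

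Another 69 genes of dendritic cells, their ligands and growth factors were taken from lists by type, and 68 were tested. Genotype called 0 of the 68 in limma. A log2 difference below 0 was found in 57, where 59.9% of all genes had one, and the median was -0.34. In the 4 females alone 30 of the 68 were below 0, against 50.9% of all genes, with a median of 0.03. The interaction called 11 of the 68 lower in the males relative to the females and 0 higher, with a median of -0.92. Over all genes 1.84% were called lower. The lists were chosen with earlier results of these data known, so these counts give no independent support. The 11 were 7 under quantile normalization and 14 under median centring, and no gene of the table was called without a filter on low values or without a variance trend, so every interaction call given here for single genes and marker lists ends under those settings. Sex called 4 higher and 0 lower, where 0.627% of all genes were called higher in males. Of the 68, 25 had their highest value in the wild type-labelled male and their lowest in the knockout-labelled male, against 11.4% of all genes.

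Among 12 further cDC1 genes, 3 passed the interaction, all lower. Irf8, a factor that cDC1 need, was at 61.5, 55.2 and 184.7 CPM in the wild type-labelled libraries and at 70.3, 52.3 and 40.3 CPM in the knockout-labelled ones, males last (interaction -2.24, SE 0.27, limma adjusted p = 0.00549). Id2, a helix-loop-helix factor shared with innate lymphocytes, and the amidase gene Naaa also passed (-1.07 and -0.90). Cadm1, an adhesion molecule that many lung cells make, had the highest CPM of the list and did not pass (-0.31). Clec9a, the cDC1 receptor for dead cells, did not follow Xcr1. It was at 48.0, 40.01 and 55.4 CPM in the wild type-labelled libraries and 31.7, 37.1 and 51.6 CPM in the knockout-labelled ones (interaction 0.25, limma adjusted p = 0.665). Clec9a was chosen after its values were seen. Of the 12 genes only Clec9a and Nfil3 (0.21) had an interaction above 0, and the list median was -0.81.

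The mature dendritic cell list held 17 genes, of which 4 passed the interaction, all lower. Cd83, a maturation marker, was at 25.0, 19.5 and 50.2 CPM in the wild type-labelled libraries and 26.3, 22.1 and 5.96 CPM in the knockout-labelled ones, males last (interaction -3.09, SE 0.33, limma adjusted p = 0.00266). The costimulatory gene Cd86 was at 28.1 and 5.03 CPM in the wild type- and knockout-labelled males, and females spanned 7.72 to 10.98 CPM (interaction -2.17, limma adjusted p = 0.0308). Il4i1, an amino acid oxidase of mature dendritic cells, was at 17.3 CPM in the wild type-labelled male, 2.14 to 6.32 CPM in the females and without a read in the knockout-labelled male (limma adjusted p = 0.00751). Marcksl1 was called as well (-1.71). Marcks and Tmem123, the list's genes of highest mean CPM, were not (0.40 and -0.24).

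Of 15 plasmacytoid genes 3 passed the interaction, all lower: Irf7, the interferon regulator (-2.44), Bst2, an interferon-induced tetherin (-2.15), and the inhibitory receptor gene Lair1 (-2.56). These are made by many leukocytes besides plasmacytoid cells. Tcf4, the factor that defines plasmacytoid cells and that stromal cells also make, was not called (0.30). None of 12 cDC2 genes passed, with Cd24a and Notch2 at the highest mean CPM (0.45 and 0.05) and a list median of -0.35. The lowest interactions of that list were those of Tbx21 (-2.59), Irf4 (-2.05) and Clec10a (-1.71). Irf4 was at 13.0 and 2.53 CPM in the wild type- and knockout-labelled males and at 5.69 to 6.66 CPM in the females. Besides Cd24a and Notch2, only Cd209b (0.07) and Cd209d (0.46) were above 0.

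Of the ligand and receptor list, Ccl19 was called in the interaction and 2 genes in the contrast of the sexes. Ccl19, a ligand of CCR7, was at 7.25 CPM in the wild type-labelled male, 1.24 to 2.01 CPM in the females and without a read in the knockout-labelled male (limma adjusted p = 0.00926). Csf2rb, the shared receptor chain for GM-CSF, IL-3 and IL-5, reached 130.5 CPM in one male and 124.7 CPM in the other, while females had 36.9 to 45.3 CPM (1.65 on the log2 scale, limma adjusted p = 0.00194). The monocyte chemokine receptor gene Ccr2 rose in males too (1.43, limma adjusted p = 0.0146). The sex contrast also called Nfil3 and Tlr7 higher in males (1.32 and 1.13). Csf1r, the receptor for the macrophage growth factor CSF1, had the highest mean CPM of the list and did not pass, with 286.4 CPM in the wild type-labelled male and 121.6 to 156.2 CPM elsewhere (interaction -0.92, limma adjusted p = 0.0976). Csf2rb and Ccr2 differ from Xcr1 in that the 2 males had like values.

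**Figure D3:**
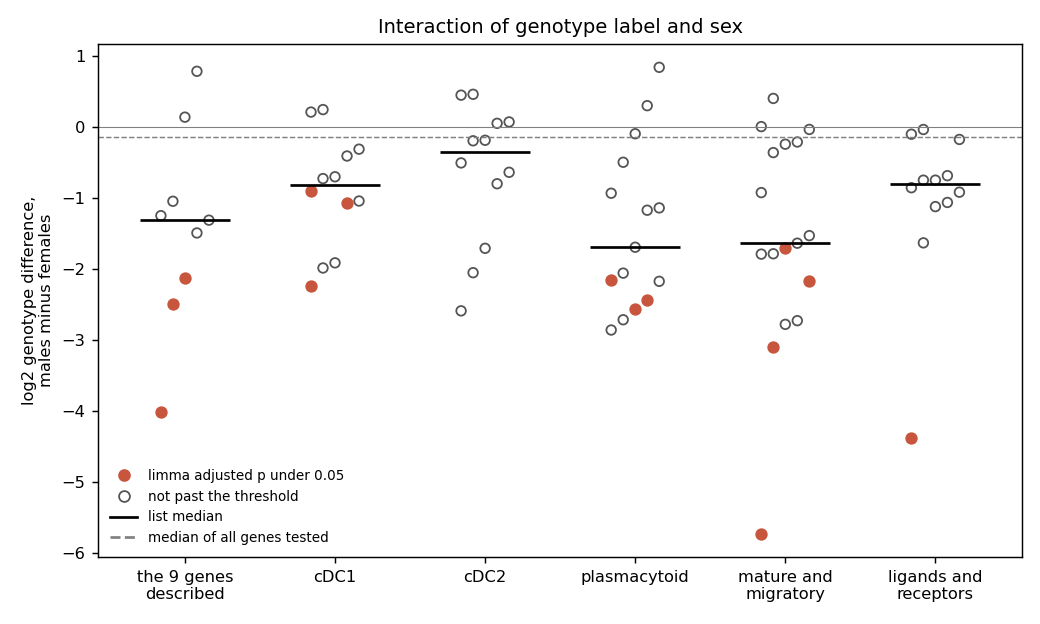
Interaction of genotype label and sex on log2(CPM + 0.5), the genotype difference in males minus that in females (vertical axis), for the 9 genes and the other dendritic cell lists; filled points passed limma, lines are list medians and the dashed line is the median of all genes. Filled points are all below 0, with 3 of them among the 9 genes and none among cDC2 genes.

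Markers of other lung leukocytes also differed between the same 2 males, and their part in the results was not tested. All 8 class II antigen presentation genes passed the interaction, lower, and 8 of 8 were highest in the wild type-labelled male. Their summed level was 2733 to 3292 CPM in the females, 10744 CPM in the wild type-labelled male and 1295 CPM in the knockout-labelled male. Of 13 interstitial macrophage and monocyte markers 11 were highest in the wild type-labelled male. The complement genes C1qa, C1qb and C1qc were among 6 that passed the interaction lower, and Ace was the 1 that passed higher. The list sum was 2429 to 2446 CPM in the females, 4008 CPM in the wild type-labelled male and 3273 CPM in the knockout-labelled male.

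For alveolar macrophages, which also carry CD11c, 11 of 12 markers were found and none was without reads. Their summed level was 656.7 and 550.5 CPM in the wild type-labelled females and 399.8 and 424.6 CPM in the knockout-labelled females. The wild type- and knockout-labelled males were at 605.0 and 583.7 CPM. Itgax was at 140.5 and 30.3 CPM in these males. The list shares Car4 with the endothelial list, and the part of alveolar macrophages in the Itgax values was not tested. Chil3, a chitinase-like gene of these cells, was at 278.7, 223.9 and 238.4 CPM with the wild type label and at 58.4, 64.5 and 230.8 CPM with the knockout label, males last. It passed the interaction, higher. It was called lower in the knockout-labelled females (-2.02, limma adjusted p = 0.00159), a call that ends without a filter or without a variance trend, while Itgax in the same females was within 39.0 to 43.4 CPM.

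Naive T and B cells also carry Ccr7, and their part in its values was not tested. All 9 B cell markers were lowest in the knockout-labelled male, with a summed level of 85.5 CPM against 178.2 to 308.4 CPM in the females and 321.6 CPM in the wild type-labelled male. For 11 T cell markers the sum was 94.1 CPM in the knockout-labelled male, 99.6 to 123.9 CPM in the females and 224.5 CPM in the wild type-labelled male. Neutrophil markers were highest in the knockout-labelled male for 13 of 13 genes, with a sum of 6821 CPM against 210.7 to 374.3 CPM elsewhere. The share of all genes highest in that male was not computed. Of the neutrophil markers 11 passed the interaction, higher, where 0.702% of all genes did. The median interaction of these markers was 4.54 log2 units, opposite in sign to that of the 9 genes, and that of all genes was -0.13. Endothelium also makes Zbtb46, and its part in the Zbtb46 values was not tested. Of 8 endothelial markers, 0 passed the interaction. Their sum was 3212 to 4051 CPM in the females, 2743 CPM in the wild type-labelled male and 3844 CPM in the knockout-labelled male. None of these lists held a marker at 0 in every library.

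**Figure D4:**
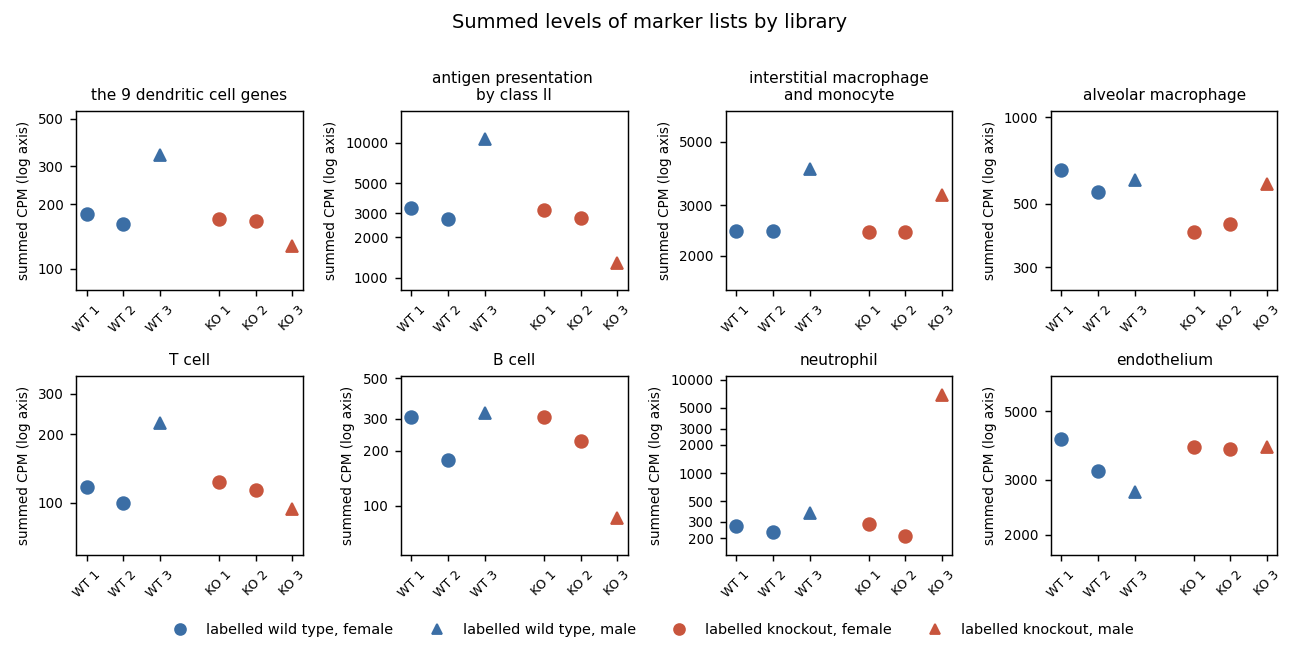
Summed CPM (log axis) of the 9 dendritic cell genes and of 7 marker lists in each library; circles are females and triangles males. The sum of the 9 genes, 162.2 to 180.2 CPM in females, is 340.4 CPM in the wild type-labelled male and 127.01 CPM in the knockout-labelled male, a 2.68-fold gap between males, against 8.30-fold for class II genes.

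Genes with the most similar profile over the 6 libraries were found by the root mean square difference of centred log2 profiles among genes with a mean of at least 1 CPM. For Xcr1 these were Mx1 (0.11 log2 units) and Aif1 (0.14). Mx1 was at 1.63, 1.48 and 11.4 CPM with the wild type label and 2.78, 2.32 and 0.546 CPM with the knockout label, males last. Itgax was nearest to Fgl2 (0.07) and Phf11b (0.09), and Fscn1 to H2-Ob (0.12) and Rps10 (0.14). For Batf3 they were Gm15821 and Stat2, for Flt3 Tacc3 and Rbl1, for Ccr7 Bcl6b and Cxcr5 and for Siglech Gm12940 and Septin6, each at 0.06 to 0.11. Zbtb46 lay nearest to Tmed10-ps and Fnip2 (0.02 and 0.06), and Cd209a had the most distant pair, Prom2 and Gm16006 (0.16 and 0.18). Within the 9, Ccr7 and Siglech were the closest pair (0.13).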

How the data were processed

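Gene-level RNA-seq values of 6 mouse lung libraries were used. The deposited values are CPM with 0.0001 added to each value; every column sums to 1000002 as rounded. Per the submitters' processing notes the build was mm10 and the tools TopHat2 and Partek; the sources used here give no annotation, filter or strand setting. Of values worth up to 100 reads, 82.3% to 83.5% were whole multiples of the step within 0.05, so no count model was used. limma 3.58.1 (R 4.3.3, variance trend) was fitted to log2(CPM + 0.5) of all 17382 genes with a mean of at least 0.5 CPM, with genotype label and sex as terms, again with their interaction, and in the 4 females; tests were two-sided. Intervals cover 95%. The fits were tested on simulated data in which males varied as females did and the spread of a gene was drawn without regard to its level. Such data cannot check the interaction calls, which rest on 1 male per label, or the variance trend. Tables were made with Python 3.11.15, pandas 2.3.3, numpy 2.4.6, scipy 1.17.1 and matplotlib 3.10.9. Of 190 list entries 189 were found, 1 by its Ensembl identifier. Positions are from GENCODE M21. The 9 genes and the lists were chosen with earlier results of these data known. Named genes are the 9, Cyp1b1, of each list the 2 of highest mean CPM and up to 3 that passed a test, and for each of the 9 the 2 nearest profiles. Clec9a, Marcksl1, Lair1, Tbx21, Irf4, Clec10a, Cd209b and Cd209d lie outside this rule and were added with their values known. Lists of other cells are given mostly by counts and sums. Alternatives were pseudocounts of 0.1 and 1, filters, scalings, moderation, terms, and leaving out each library.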

Additional observations from a re-analysis of the deposited data

Results flagged for a closer look

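In limma's test of genotype label by sex, the male and female genotype differences were unlike for Xcr1 (-4.01 log2 units), Itgax (-2.12) and Fscn1 (-2.49); each rests on 1 male per label. Itgax in the 4 females also held a value far from the others, the knockout-labelled female 2 at 39.0 CPM against 43.1 to 43.4 CPM, a gap of 0.943 of the range. The limit used for such a gap (the 95% critical value of Dixon for 4 samples) is passed by chance in about 1 of 20 groups, and 9 groups of females were examined.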

How the results depend on the processing

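Of the 9 genes, 0 were called for genotype under any of 16 alternatives. The number of genes called for genotype, 2, was 6 without a filter on low values, 6 with quantile normalization, 6 with median centring, 6 with robust moderation, 4 in the 4 females and 1 to 4 when a library was left out. In the females alone, where 4 genes were called, alternatives chosen after seeing the data gave 0 without a filter, 12 with median centring, 10 with robust moderation, 0 without a variance trend and 4 to 14 with a library left out. For sex, 145 genes became 11 without a variance trend and 21 to 877 with a library left out (877 without the wild type-labelled male, 712 without the knockout-labelled male), among them 0 to 2 of the 9. For the interaction, 441 genes became 0 without a filter and 0 without a variance trend, with 0 of the 9 in both, and 255 to 696 with a female left out, with 3 to 4 of the 9. It was not fitted without either male, which leaves no male of a label.

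With a library left out, log2 genotype differences ran from -1.42 to 0.39 for Xcr1, -0.48 to 0.05 for Flt3, -0.14 to 0.15 for Zbtb46, -0.67 to 0.14 for Ccr7, -1.22 to 0.02 for Fscn1 and -0.59 to 0.10 for Siglech, the upper ends being those without a male except for Zbtb46. In the 4 females they were 0.39, 0.048, 0.14, 0.021 and 0.10 for Xcr1, Flt3, Ccr7, Fscn1 and Siglech; Zbtb46 was 0.032 with quantile normalization and 0.097 with median centring. Log2 sex differences ran from -1.54 to 2.48 for Xcr1, -0.17 to 0.88 for Flt3, -0.43 to 1.69 for Itgax, -0.28 to 1.03 for Batf3, -1.06 to 0.43 for Ccr7, -1.44 to 1.05 for Fscn1 and -0.72 to 0.53 for Siglech, and the interaction of Zbtb46 from -0.12 to 0.40. The cause of these changes was not tested. Replicate numbers only name the libraries. No paired analysis was possible because the labels give no numbers that tie libraries across groups.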
